A study of Triticum aestivum with 4 samples.

Results

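GA20-oxidases (GA20ox), enzymes of gibberellin synthesis, were represented on the wheat array by 4 probe sets, out of 61115 wheat probe sets measured. They were chosen by name: a probe set was taken when the gene symbol or a synonym held GA20ox, and any probe set without a name in the same transcript cluster was to be added, of which there were 0. The 4 probe sets belong to 3 genes, GA20ox1d (LOC543325, with 2 probe sets), GA20ox1b (LOC543326) and GA20ox1a (LOC543327). The samples were developing seed of bread wheat, Triticum aestivum, taken 5 days after anthesis from field-grown plants of the genotypes RL4452 and AC Domain, the parents of a mapping population whose transcript levels the series compares. Each genotype had 2 biological replicates, per the labels, with 1 array each, and no treatment was given in the labels. The array reports a fluorescence intensity per probe set, shown here as deposited or as its log2.

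Gibberellins are plant hormones that promote stem elongation, germination and the growth of young organs, the developing grain among them. The enzyme encoded by GA20ox genes is a dioxygenase of the cytosol that uses 2-oxoglutarate and oxidises its substrate in successive steps, which gives the direct precursors of the bioactive gibberellins. A 3-oxidase then makes the active hormone, a 2-oxidase inactivates it, and the hormone acts through the receptor GID1 and the DELLA repressors, which in many plants also feed back on the GA20ox genes. Bread wheat is hexaploid and carries A, B and D copies of most genes, called homoeologues. The letters a, b and d at the end of the 3 names stand for these copies. No probe sequences were at hand, so whether a probe set reads only the copy it is named for was not tested. Nor was it tested whether the probes read both genotypes alike. Values given below for a copy are those of the probe set with its name.

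GA20ox1d was the 1 gene of the 3 whose signal exceeded the negative control level on all 4 arrays. It was higher on the RL4452 arrays, but the difference did not pass the test over all probe sets. Its probe set Ta.141.1.S1_at had intensities of 95.7 and 64.3 in RL4452 (replicates 1 and 2), against 47.3 and 33.3 in AC Domain. Both RL4452 arrays were thus brighter than both AC Domain arrays, and all 4 arrays lay above 22.3, the 95th percentile of 23 negative control probe sets. On the log2 scale RL4452 averaged 6.29 ± 0.41, against 5.31 ± 0.36 for AC Domain (SD over 2 arrays each). The difference, RL4452 minus AC Domain, was 0.98 on the log2 scale (standard error 0.29), a ratio of 1.98 with a 95% interval of 1.18 to 3.31 that is not adjusted for the number of probe sets. Across all probe sets the adjusted p was 0.393 (limma, Benjamini-Hochberg), and the unadjusted p was 0.0195.

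The other GA20ox1d probe set, Ta.141.1.S1_x_at, comes from the same transcript cluster. The suffix x marks a probe set in which some probes also match other transcripts, so that it is no independent measurement of the gene. Its intensities were 54.4 and 40.3 in RL4452, against 36.2 and 23.7 in AC Domain. Again both RL4452 arrays were above both AC Domain arrays, and all 4 were above the negative control level. On AC Domain replicate 2 its log2 intensity of 4.57 was close to that level and below the highest single negative control value, 4.93. The difference between the genotypes was 0.68 on the log2 scale (standard error 0.28; limma, adjusted p = 0.586), a ratio of 1.60 with a 95% interval of 0.961 to 2.66. The difference was thus 0.31 smaller than for the plain probe set. Within an array, the plain probe set exceeded the x probe set by 0.81 and 0.67 in RL4452 and by 0.39 and 0.49 in AC Domain (log2). These gaps hold the same 0.31 and were not tested on their own.

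For the B copy, GA20ox1b, the probe set Ta.23667.1.S1_at stayed below the negative control level on all 4 arrays. It had 9.55 and 9.16 in RL4452, against 8.21 and 6.37 in AC Domain. The signals did not overlap, but with both genotypes below the level of background they give no measure of a change in transcript. As tested by limma, the difference in log2 signal was 0.37 (standard error 0.20; limma, adjusted p = 0.658). Transcript of the B copy was not detectable above background with this probe set, which does not show that it was absent.

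For the A copy, GA20ox1a, the probe set Ta.23668.1.S1_at was above the negative control level on 1 array of 4. Its intensities were 24.6 and 15.6 in RL4452, against 19.1 and 14.7 in AC Domain. Here the genotypes overlapped, since AC Domain replicate 1 was brighter than RL4452 replicate 2. The mean log2 intensity of both genotypes (4.29 in RL4452 and 4.07 in AC Domain) fell short of the negative control level of 4.48, so a change in transcript cannot be read from this probe set either. As tested, the difference in log2 signal was 0.23 (standard error 0.29, 95% interval -0.51 to 0.96; limma, adjusted p = 0.858). Levels of the 3 genes cannot be ranked against each other, because each probe set binds with its own strength. Whether the genotype difference of the D copy exceeds that of the A or B copy was not tested, and 2 arrays against 2 give an exact permutation p of 0.333 at the lowest.

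**Figure D1:**
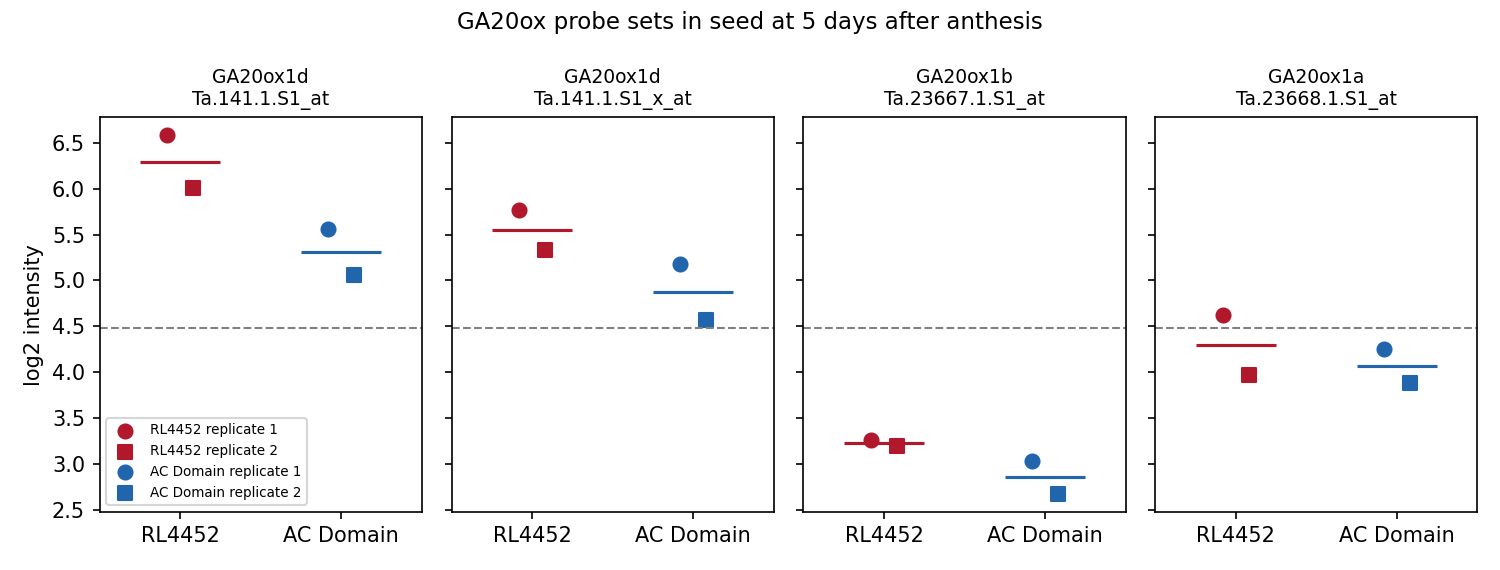
Log2 intensity of the 4 GA20ox probe sets, with RL4452 in red on the left and AC Domain in blue on the right of each panel. Circles are replicate 1, squares replicate 2, bars the means of 2 arrays, and the dashed line the negative control level of 4.48. Both GA20ox1d probe sets lie above the line on all 4 arrays, GA20ox1b lies below it on all 4, and GA20ox1a is above it on 1.

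In all, 4 of 4 GA20ox probe sets had a higher signal in RL4452, as did 58.4% of all wheat probe sets. Both RL4452 arrays were above both AC Domain arrays in 3 of the 4 members and in 24.0% of all probe sets. The members' median difference was 0.52 on the log2 scale, against 0.05 over all probe sets. These members are few: 2 of the 4 measure 1 gene and share a cluster, and the other 2 were dim, so the shares say little about the enzyme family. None of the members passed the adjusted threshold of 0.05 (0 of 4), which 0.800% of all probe sets passed. At an unadjusted p under 0.05, limma gave 1 of the 4 members, and 9.16% of all probe sets.

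The size of the GA20ox1d difference was uncommon among the probe sets but below what this design called. A difference of 0.98 or more toward RL4452 was found in 654 probe sets, 1.07% of all (1.68% among the 36278 brighter than the negative control level on average), and 137 of these 654 passed the threshold. The smallest difference that passed in either direction was 1.41 on the log2 scale. By unadjusted p the plain GA20ox1d probe set ranked 3034 of 61115. Its x probe set had a difference that 2.59% of all probe sets reached or exceeded, and for GA20ox1b and GA20ox1a these shares were 11.6% and 25.2%.

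**Figure D2:**
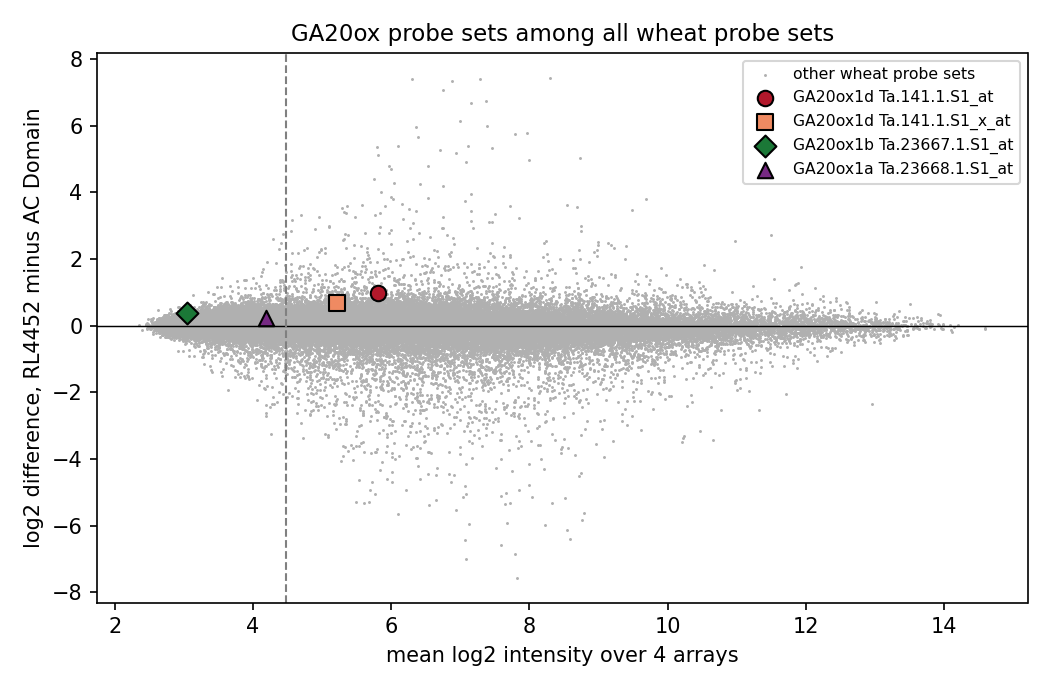
Log2 difference, RL4452 minus AC Domain, against the mean log2 intensity over 4 arrays for all 61115 wheat probe sets (grey), with the 4 GA20ox probe sets in colour and the negative control level as a dashed line. The GA20ox1d probe sets lie toward the upper edge of the dense cloud at 0.98 and 0.68, while GA20ox1b and GA20ox1a lie within it to the left of the line.

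The arrays of replicate 1 and those of replicate 2 belonged to different projects in the run files of the instrument. All 4 members were brighter on the replicate 1 array than on the replicate 2 array of the same genotype, a pattern seen in 27.9% of all probe sets. For the plain GA20ox1d probe set replicate 1 exceeded replicate 2 by 0.58 in RL4452 and by 0.51 in AC Domain on the log2 scale. Each project held 1 array of each genotype, so project, biological replicate and array cannot be told apart here. The gap between the replicates was of like size in both genotypes and smaller than the genotype difference. For the x probe set it was 0.43 in RL4452 and 0.61 in AC Domain. In GA20ox1a it was 0.65 in RL4452 and 0.37 in AC Domain, larger in each genotype than that gene's difference of 0.23 between the genotypes.

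Within each project the GA20ox1d difference was nearly the same. RL4452 exceeded AC Domain by 1.02 in the project of replicate 1 and by 0.95 in that of replicate 2 (log2), ratios of 2.02 and 1.93. A difference of at least 0.95 in both projects was found in 449 of 61115 probe sets. The x probe set had 0.59 and 0.76, GA20ox1b 0.22 and 0.52, and GA20ox1a 0.37 and 0.09, so that all 4 members were higher in RL4452 within both projects, as were 35.7% of all probe sets. When the project entered the fit as a replicate block, the standard error of the plain GA20ox1d probe set was 0.16 and its adjusted p 0.115 (limma; unadjusted p = 0.00274). The x probe set then had an adjusted p of 0.235, and 0 of 4 members passed, against 1.09% of all probe sets.

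Single arrays moved the estimates. RL4452 replicate 1 was the brightest array for all 4 members. Without it the difference was 0.70 for the plain GA20ox1d probe set and 0.46 for the x probe set, and GA20ox1a was at -0.10. The run file of RL4452 replicate 2 records that its wash was aborted. Without that array the 2 GA20ox1d probe sets had 1.27 and 0.89 (limma, adjusted p = 0.124 and 0.258). Without AC Domain replicate 2 they had 0.73 and 0.37, the x probe set thus at little more than its standard error of 0.32, and without AC Domain replicate 1 they had 1.24 and 0.98. Over the 10 other settings tried, the plain probe set ran from 0.70 to 1.27 and the adjusted p from 0.115 to 1.00.

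**Figure D3:**
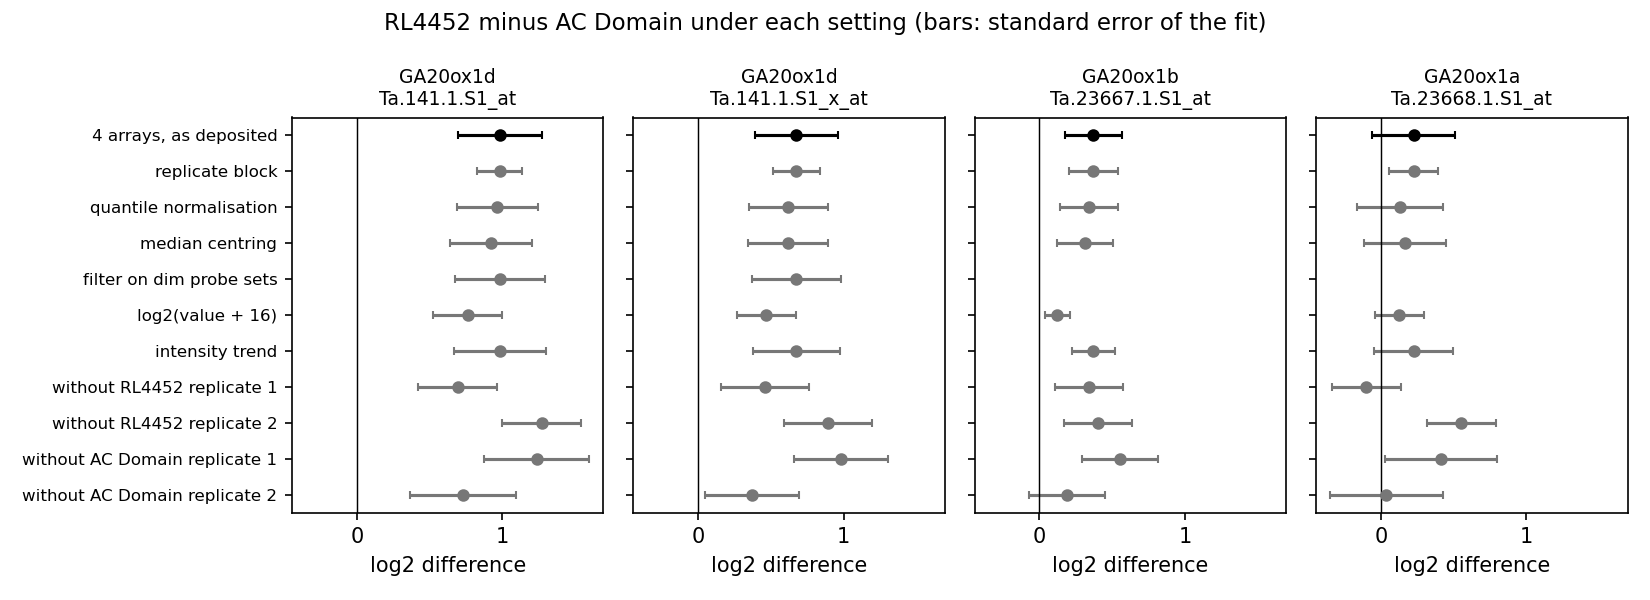
Log2 difference, RL4452 minus AC Domain, of each GA20ox probe set with 4 arrays as deposited (black, top) and under 10 other settings (grey). Bars are standard errors of the fit, and settings without a point had left the dim probe set out. The points of both GA20ox1d probe sets stay to the right of 0 in every setting shown, and GA20ox1a crosses it without RL4452 replicate 1.

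Readings of the RNA controls also varied between the arrays. Of the 7 control genes with probe sets at both ends, 6 had their lowest 3' minus 5' signal on RL4452 replicate 1. The GA20ox members were brightest on that array. In all 7 control genes the 3' minus 5' signal was highest on RL4452 replicate 2. For actin it was -0.93 and -0.10 in RL4452, against -0.50 and -0.38 in AC Domain (log2). The control for 18S rRNA read 191 and 432 in RL4452, against 2586 and 1914 in AC Domain. Their part in the GA20ox result was not tested.

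Other genes of the gibberellin pathway could hardly be followed by name, since 1273 probe sets of 771 genes carry one. Name patterns for the other enzymes of synthesis and inactivation (ent-kaurene and later steps, 3-oxidases, 2-oxidases), for the receptor and the DELLA proteins, and for other hormones found 0 probe sets. Among patterns for gibberellin targets of cereals, 2 probe sets were found, and 0 passed (limma; 0 at an unadjusted p under 0.05). Since 0.800% of all probe sets passed, and 9.16% at the unadjusted p, a count of 0 among 2 says little about these targets. XTH, a xyloglucan endotransglucosylase that loosens cell walls, had log2 intensities of 10.23 and 9.17 in RL4452, against 9.75 and 9.19 in AC Domain, a difference of 0.23 (limma, adjusted p = 0.909). BMY1, found through its synonym amy1, encodes a beta-amylase and not the alpha-amylase that gibberellin induces in germinating grain. BMY1 is thus not one of the intended targets, though it stayed in the count of 2, and XTH is the other. The difference of BMY1 was 0.17 (limma, adjusted p = 0.888). In both, as in GA20ox1d, replicate 1 was brighter than replicate 2 in each genotype. A pattern for other dioxygenases found only 3 probe sets of DMAS1, an enzyme of another family, the aldo-keto reductases, and so gave 0 members.

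Genes that respond to abscisic acid, the hormone that opposes gibberellin in the seed, had 10 probe sets of 5 genes of the late embryogenesis and dehydrin type. Of these, 9 were higher in RL4452, against 58.4% of all probe sets, with a median difference of 0.20, and 0 passed, against 0.800% (limma; 0 at an unadjusted p under 0.05, against 9.16%). The 10 are few, and 7 of them lay below the negative control level on average. The other 3 exceeded it, 2 of them for the dehydrin Rab15 and 1 for Em. Within the project of replicate 1 their differences were -0.33 and 0.01 for Rab15 and -0.09 for Em (log2). In the project of replicate 2, which holds the array with the aborted wash, they were 0.95, 0.52 and 0.50. The higher signal of these 3 in RL4452 thus came from the project of replicate 2. Rab15 did not share the pattern of GA20ox1d across the arrays, since RL4452 replicate 2 was its brightest array. Its probe set Ta.2704.1.S1_at had 5.17 and 6.10 in RL4452, against 5.50 and 5.15 in AC Domain (log2; limma, adjusted p = 0.838).

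The signal comes from whole young seeds, in which endosperm, embryo and the green outer layers were not separated, so fewer cells of a type and less RNA per cell cannot be told apart. Endosperm genes had 13 probe sets with summed intensities of 3556 and 3003 in RL4452, against 2232 and 2210 in AC Domain, of which 5 were above the negative control level. The sum was higher in RL4452, as GA20ox1d was. GBSS-I, the starch synthase of amylose, was the 1 member past the threshold (difference 2.38 on the log2 scale; limma, adjusted p = 0.0344), which 0.800% of all probe sets passed. Without GBSS-I the sums overlapped, with 1884 and 1596 in RL4452, against 1876 and 1966 in AC Domain. Most of that sum, up to 89.0% on an array, was AGP-S, a subunit of the enzyme that makes ADP-glucose, whose difference was -0.21 (limma, adjusted p = 0.780). Of the 11 endosperm probe sets besides GBSS-I and AGP-S, 9 were higher in RL4452, against 58.4% of all probe sets. Only 3 of the 11 lay above the negative control level, all 3 higher in RL4452, with differences from 0.16 to 0.46. The highest of these was a low-molecular-weight glutenin (limma, adjusted p = 0.492, unadjusted p = 0.0345). An unadjusted p under 0.05 was found in 9.16% of all probe sets (limma). Chloroplast rbcL, a marker of green layers, had 28 probe sets, of which 8 exceeded the negative control level. The RNA was enriched for poly(A), and how that acted on a chloroplast transcript was not tested. The 28 probe sets summed to 49266 and 48514 in RL4452, against 52631 and 50840 in AC Domain. Between 98.3% and 98.6% of each sum came from 2 probe sets, with differences of -0.09 and -0.08. Of the 6 others above the level, 3 were higher and 3 lower in RL4452, from -0.54 to 0.60. Embryo maturation markers had sums of 110 and 139 in RL4452, against 109 and 102 in AC Domain, with 1 of 6 probe sets above the level. All 6 are also among the 10 probe sets of the abscisic acid list above, so they are no separate measurement. Anther RAFTIN genes had 82.6 and 88.7 in RL4452, against 87.7 and 74.9 in AC Domain, with 1 of 4 above the level. The part of tissue make-up in the GA20ox result was not tested.

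The named genes whose 4 values ran most like those of GA20ox1d were LOC542876, LOC100049049, LOC780672, LOC543245 and LOC543023, which have no descriptive symbol. They were the top 5 of 441 named genes by Pearson's r with Ta.141.1.S1_at over 4 arrays, among probe sets above the negative control level that spanned at least 0.5 on the log2 scale. Their r was between 0.991 and 1.00, a description over only 4 points that share genotype and project. At least as high an r was found in 232 of 23334 probe sets, named or not, that met the same limits. LOC542876, the closest, had log2 intensities of 6.29 and 6.02 in RL4452, against 5.80 and 5.55 in AC Domain, a difference of 0.48 (limma, adjusted p = 0.569). From high to low, Ta.141.1.S1_at ran from RL4452 replicate 1 over RL4452 replicate 2 and AC Domain replicate 1 to AC Domain replicate 2. The 5 genes share this order because they were chosen for likeness. In all, 3 of the 4 GA20ox members had it, as did 7.25% of all probe sets. The plain GA20ox1d probe set has it by definition, since the order was read from it. The others are its x probe set, from the same cluster, and GA20ox1b, which lay below the negative control level on all 4 arrays. The count thus says little about the enzyme family.

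**Figure D4:**
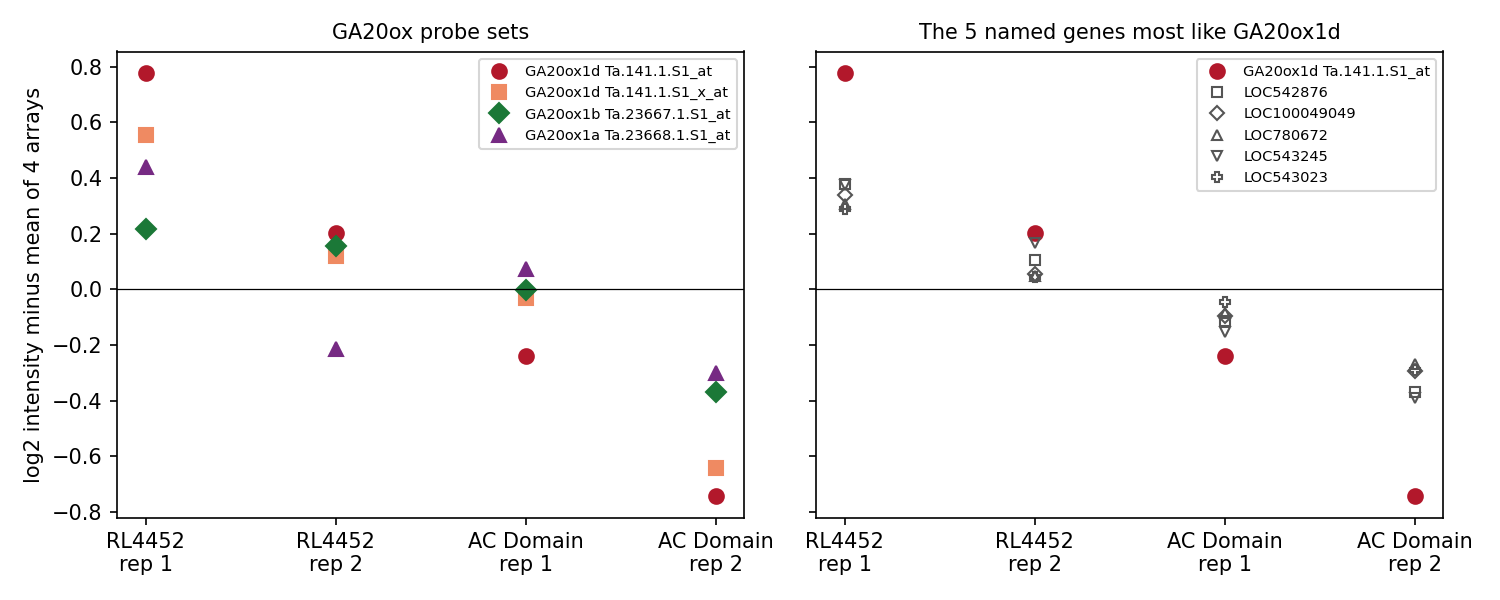
Log2 intensity minus the probe set's mean over 4 arrays, by array, for the 4 GA20ox probe sets (left) and for the plain GA20ox1d probe set with the 5 named genes most like it (right). GA20ox1d spans the widest range in both panels, and GA20ox1a is the member in which AC Domain replicate 1 lies above RL4452 replicate 2.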

How the data were processed

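RNA enriched for poly(A) was labelled and put on Affymetrix wheat arrays, 1 per sample, as the labels' protocols state. The authors deposited linear-scale RMA intensities of probe sets, per the submitters' processing notes and the values themselves; the version, and which arrays were normalised together, are not given in the sources used here. They were log2-transformed without further normalisation. After removal of 175 control probe sets, the 61115 others were fitted in R 4.3.3 with limma 3.58.1 (lmFit, then eBayes, genotype as the only factor, RL4452 minus AC Domain, two-sided, Benjamini-Hochberg over all probe sets, threshold 0.05); the script was tested on simulated data. Precision is limited by the number of arrays, with 2 residual and 2.97 prior degrees of freedom. Array medians ran from 31.9 to 33.7, and 58.0% to 60.1% of probe sets lay above the negative control level. Replicate numbers pair the arrays through the project in the run files, and same-numbered arrays deviated together (r = 0.398 across probe sets).

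Names came from a platform annotation updated through gene identifiers to RefSeq (IWGSC CS RefSeq v2.1), of which no coordinates were used. All members were named, with every gibberellin list member. The members and lists were chosen with earlier results of these data known, and the list of genes responsive to abscisic acid was added after the annotation was seen. GLU1A, a beta-glucosidase caught by an endosperm pattern, was left out of that list, and DMAS1 of the dioxygenases.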

Additional observations from a re-analysis of the deposited data

How the results depend on the processing

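Each result was recomputed under 10 alternatives: 2 rescalings, a filter on dim probe sets, log2(value + 16), an intensity trend, the replicate block and 4 fits without 1 array each. With all 4 arrays, no GA20ox probe set passed the threshold under any alternative that kept it. The 2 probe sets found by patterns for gibberellin targets, XTH and the beta-amylase BMY1, then gave 0 calls. Both GA20ox1d probe sets and GA20ox1b stayed higher in RL4452 in every alternative that kept them. With 1 array left out, the log2 difference ran from 0.70 to 1.27 for the plain GA20ox1d probe set, from 0.37 to 0.98 for its x probe set, from 0.19 to 0.55 for GA20ox1b and from -0.10 to 0.55 for GA20ox1a. The negative value of GA20ox1a arose without RL4452 replicate 1, where 3 of 4 members were higher. The filter on dim probe sets left 2 members, the GA20ox1d pair, both higher. With log2(value + 16) the plain probe set had 0.76 and GA20ox1b 0.12.

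Over all probe sets, 489 passed. The count was 143 with log2(value + 16), which shrinks the differences of dim probe sets, and 667 with the replicate block, which changed no call among the GA20ox members. Without AC Domain replicate 1 or 2 limma called 0 (2999 and 2441 at an unadjusted p under 0.05), and without RL4452 replicate 1 or 2 it called 1031 and 998; with 1 array left out, the lone array was assumed to vary like the pair of the other genotype. Dim signal limits the statements on GA20ox1a and GA20ox1b, and 2 arrays a genotype limit those on GA20ox1d.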
